A study of Homo sapiens with 2 samples.

Results

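The osteoblast-like genes are a list of 9 genes that bone-forming cells use to become osteoblasts and to build mineralised matrix: *RUNX2*, *RUNX1*, *MSX2*, *SP7*, *SPP1*, *IBSP*, *SPARC*, *ALPL* and *CDH11*. The rule that lists them uses no measured value, although the list was drawn up with earlier results of these data known. All 9 were found among the 18394 genes of the expression table by their Ensembl gene IDs, to which the table adds the ending _at. Their levels were compared between MDA-MB-231(SA), a variant of a human breast cancer line known for forming bone metastases in mice, and the parental MDA-MB-231 line, which lacks the oestrogen receptor. Both lines were grown as flask cultures in the same serum-containing medium, with no further treatment named in the labels, and whether the variant is a single clone is not given in the sources used here. Total RNA of each was measured on 1 Affymetrix array, so no difference below has a replicate check, no test was possible, and culture, array and line cannot be told apart.

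Osteoblasts arise from mesenchymal precursors under the transcription factor RUNX2, which is followed by SP7, also called osterix. The mature cells lay down collagen with acidic proteins such as osteopontin (*SPP1*), bone sialoprotein (*IBSP*) and osteonectin (*SPARC*), and the enzyme tissue-nonspecific alkaline phosphatase (*ALPL*) allows mineral to form on it. The use of such genes by tumour cells that settle in bone is called osteomimicry, and the comparison shows which of them differed between these 2 cultures.

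*SPP1* and *MSX2*, the 2 genes that were at least 2-fold higher in the variant, lie on different chromosomes, and *IBSP* lies on the chromosome of *SPP1*, with 1 protein-coding gene, *MEPE*, starting between them in the RefSeq annotation. The 250 bases before the annotated transcript start of these genes are shown to set the sequences of the 2 higher genes beside that of a neighbour that did not differ by 2-fold. They are taken from RefSeq, build GRCh38.p14, and run 5′ to 3′ on the plus strand, at chr4:87975464-87975713 for *SPP1*, chr4:87799304-87799553 for *IBSP* and chr5:174724332-174724581 for *MSX2*. Capitals mark TGTGGT or its reverse complement ACCACA, the core letters that RUNX factors bind, and TAATTA, which reads the same on both strands. TAATTA is a form of the letters that many homeobox factors bind, and shorter or other forms were not searched.
SPP1: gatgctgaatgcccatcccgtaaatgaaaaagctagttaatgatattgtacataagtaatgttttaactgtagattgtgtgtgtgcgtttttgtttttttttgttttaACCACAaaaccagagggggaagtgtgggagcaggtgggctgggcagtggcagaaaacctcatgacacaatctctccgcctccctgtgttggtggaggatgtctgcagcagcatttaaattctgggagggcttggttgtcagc
MSX2: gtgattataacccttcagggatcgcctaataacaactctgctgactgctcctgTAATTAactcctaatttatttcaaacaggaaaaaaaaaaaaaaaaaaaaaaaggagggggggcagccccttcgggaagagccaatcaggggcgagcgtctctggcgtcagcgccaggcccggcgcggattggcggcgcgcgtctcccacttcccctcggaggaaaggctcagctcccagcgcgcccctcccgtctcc
IBSP: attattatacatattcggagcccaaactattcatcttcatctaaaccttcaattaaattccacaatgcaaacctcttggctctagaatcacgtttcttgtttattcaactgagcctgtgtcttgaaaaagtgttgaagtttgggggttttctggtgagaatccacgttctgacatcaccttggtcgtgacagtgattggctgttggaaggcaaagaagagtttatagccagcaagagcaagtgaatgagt

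The *SPP1* sequence held 1 RUNX match, from 142 to 137 bases before the start, and no homeobox match. The *MSX2* sequence held 1 homeobox match, from 197 to 192 bases before the start, and no RUNX match. The *IBSP* sequence held neither. Promoter sequences were found for 7 of the 9 members, all but *CDH11* and *SP7*, in 10 windows, since *RUNX2* had 2 and *ALPL* 3. RUNX letters were present in 2 of the 10 windows, 1 each of *SPP1* and *RUNX2*, and 11.0% of the 35116 promoter windows of the same length hold them. TAATTA was present in 1 of the 10 windows, that of *MSX2*, against 4.35% of all windows. The GC box GGGCGG, or CCGCCC on the other strand, was present in 3 of the 10 windows, 1 each of *ALPL*, *RUNX1* and *RUNX2*, against 42.6% of all windows. No match overlapped another, and a match is a description of letters, not of a bound site.

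Of the 9 genes, 2 were at least 2-fold (1 on the log2 scale) higher in the SA variant, 0 were at least 2-fold lower and 7 differed by less. Over all 18394 genes, 3.50% were at least 2-fold higher and 2.50% were at least 2-fold lower, and 6.00% passed that size in either direction. The SA variant minus parental difference had a median of 0.078 over the 9 genes and -0.0045 over all genes (log2 scale). In RNA from a whole culture, more cells with the transcript and more transcript per cell cannot be told apart.

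How many of the 9 genes counted as dim depended on the level floor. The median over both arrays together, 5.62 on the log2 scale, served as a level floor. RMA values in the lower part of the range were taken to hold mostly background signal, an assumption that was not tested. On both arrays 6 of the 9 genes lay below this floor, as did 47.1% of all genes. A floor at the median leaves about as many values below it as above it by construction. With the floor at the 25th percentile instead, 6 of the 9 reached it on at least 1 array. *CDH11* reached the median floor on both arrays, and *SPP1* and *MSX2* reached the median floor on the SA array only. Those 2 genes therefore had to differ to be counted among the 3 members at or above the floor on at least 1 array, and no count over these 3 is read as a result. Among the 9725 genes at or above the floor on at least 1 array, 5.75% were at least 2-fold higher in the variant, 4.17% were at least 2-fold lower and 9.92% passed that size either way.

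**Figure D1:**
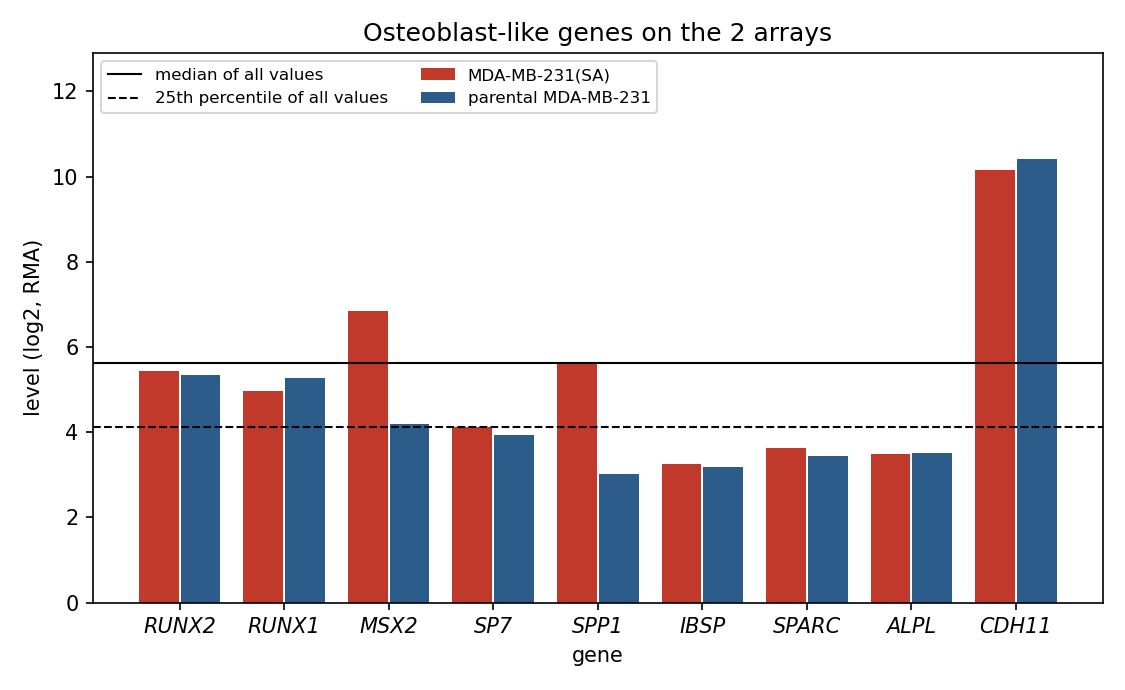
Level (log2 scale, RMA) of each of the 9 genes on the SA array (red) and on the parental array (blue), 1 array per line, with the median (5.62, solid line) and the 25th percentile (4.12, dashed line) of all values. *CDH11* is far above the median on both arrays, *MSX2* and *SPP1* reach it on the SA array only, and the other 6 genes stay below it on both; bar heights of different genes are not amounts to be compared.

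Among the transcription factors, *MSX2* (ENSG00000120149_at) was the one at least 2-fold higher. MSX2 is a homeobox protein that acts in craniofacial bone and in mesenchymal precursors. Its level was 6.85 on the SA array and 4.19 on the parental array (log2 scale). The difference was 2.66, which is 6.34-fold higher in the variant. The SA level was above the floor and the parental level below it, at percentiles 65.7 and 26.2 of all genes on the same arrays. The parental level, below the floor, lay where values were taken to hold mostly background. The fold is therefore not read as a ratio of clearly measured levels. Over the whole table, 44 genes, *MSX2* included, were higher in the variant by at least this much, and 31 were lower by at least as much.

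*RUNX2* (ENSG00000124813_at), the factor that osteoblast formation requires, had close to equal values on the 2 arrays. Its level was 5.43 on the SA array and 5.35 on the parental array, just below the floor on both. A difference in expression at such levels could be hidden. The difference was 0.077 on the log2 scale (1.06-fold), and 81.8% of all genes differed by at least as much in one direction or the other. *RUNX1* (ENSG00000159216_at), the family member best known from blood formation, was at 4.97 on the SA array and 5.28 on the parental array, a difference of -0.31. That difference was the lowest of the 9, and 41.0% of all genes differed by at least as much. *SP7* (ENSG00000170374_at), which acts after *RUNX2* in bone formation, was dim in both, at 4.13 on the SA array and 3.93 on the parental array, a difference of 0.19.

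Among the secreted proteins of bone matrix, *SPP1* was higher in the variant and *IBSP* and *SPARC* were dim in both lines. Osteopontin, the product of *SPP1*, binds integrins and CD44 and is made by osteoblasts, osteoclasts, macrophages and many carcinomas. The level of *SPP1* (ENSG00000118785_at) was 5.63 on the SA array and 3.01 on the parental array. On the parental array this level lay at percentile 2.80 of all genes, where values were taken to hold mostly background. On the SA array it lay at percentile 49.9, only 0.0090 above the floor. The difference of the deposited values was 2.62 on the log2 scale (6.13-fold higher in the variant). It is therefore read as a difference from background rather than from a measured parental level. A difference at least this large upward was found for 45 genes of the table, *SPP1* included, and 33 genes were lower by at least as much.

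*SPP1* and *MSX2* were also set against the genes that began from a dim level. Below the floor on the parental array lay 9248 genes, of which 3.09% were at least 2-fold higher in the variant. Of them, 38 were higher by at least the difference of *SPP1* and 37 by at least that of *MSX2*, each count with the gene itself. In the mirrored class, the 9146 genes below the floor on the SA array, 22 were lower by at least the difference of *SPP1* and 20 by at least that of *MSX2*.

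**Figure D2:**
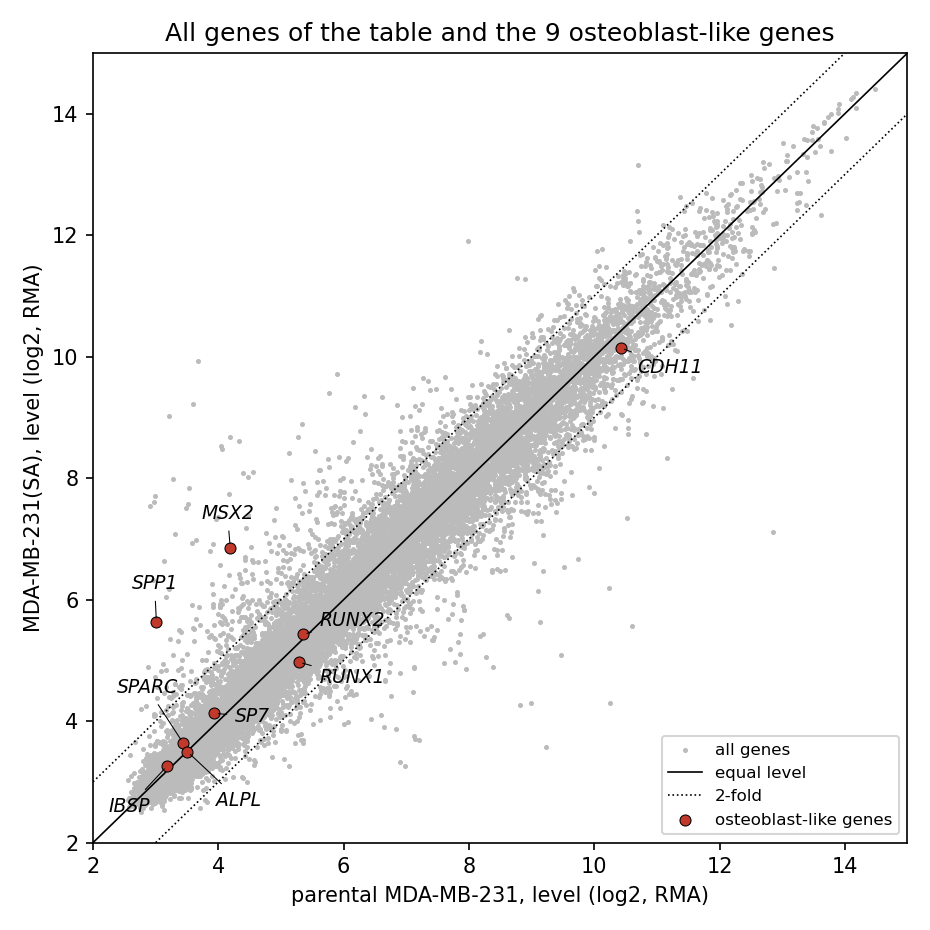
Level of each of the 18394 genes (log2 scale, RMA) on the SA array (vertical) against the parental array (horizontal), with the 9 genes in red, the line of equal level and dotted lines at 2-fold. *SPP1* and *MSX2* lie above the upper 2-fold line, at differences of 2.62 and 2.66, and the other 7 genes lie between the dotted lines.

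*IBSP* (ENSG00000029559_at), bone sialoprotein, which seeds mineral crystals and carries an integrin-binding motif as osteopontin does, was at 3.26 on the SA array and 3.19 on the parental array. The difference was 0.078 on the log2 scale, and both levels lay in the lowest part of the range, at percentiles 7.87 and 5.88. *SPARC* (ENSG00000113140_at), a calcium- and collagen-binding protein, was at 3.64 on the SA array and 3.44 on the parental array, a difference of 0.20. Thus neither of these matrix genes differed by 2-fold, and in both cultures they lay under 4.12, the 25th percentile of the whole table.

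*ALPL* (ENSG00000162551_at), the phosphatase that clears pyrophosphate so that mineral can form, was at 3.50 on both the SA array and the parental array. The difference was -0.0058 on the log2 scale, the smallest in size among the 9 genes. With *IBSP* and *SPARC* it made up the 3 members below the 25th percentile of all values on both arrays, a position held by 22.4% of all genes. At such levels these arrays would not show a difference between absence and low expression.

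*CDH11* (ENSG00000140937_at), the adhesion receptor also called osteoblast cadherin, was the one member well above the floor in both lines. Its level was 10.1 on the SA array and 10.4 on the parental array, at percentiles 95.1 and 96.3. The difference was -0.27 on the log2 scale, or 0.828 times the parental level, and 45.7% of all genes differed by at least as much. A 2-fold difference was present in 7.39% of the 8669 genes at or above the floor on both arrays, and *CDH11* was not among them.

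The 7 genes other than *SPP1* and *MSX2* had differences from -0.31 to 0.20 on the log2 scale, 4 above 0 and 3 below. The robust SD of the difference over all genes was 0.36, so all 7 lay within it. Of these 7, *RUNX2*, *RUNX1*, *SP7*, *IBSP*, *SPARC* and *ALPL* were below the floor in both cultures, as were 47.1% of all genes. *CDH11* was above it in both, and *SPP1* and *MSX2* were above it in the variant only.

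**Figure D3:**
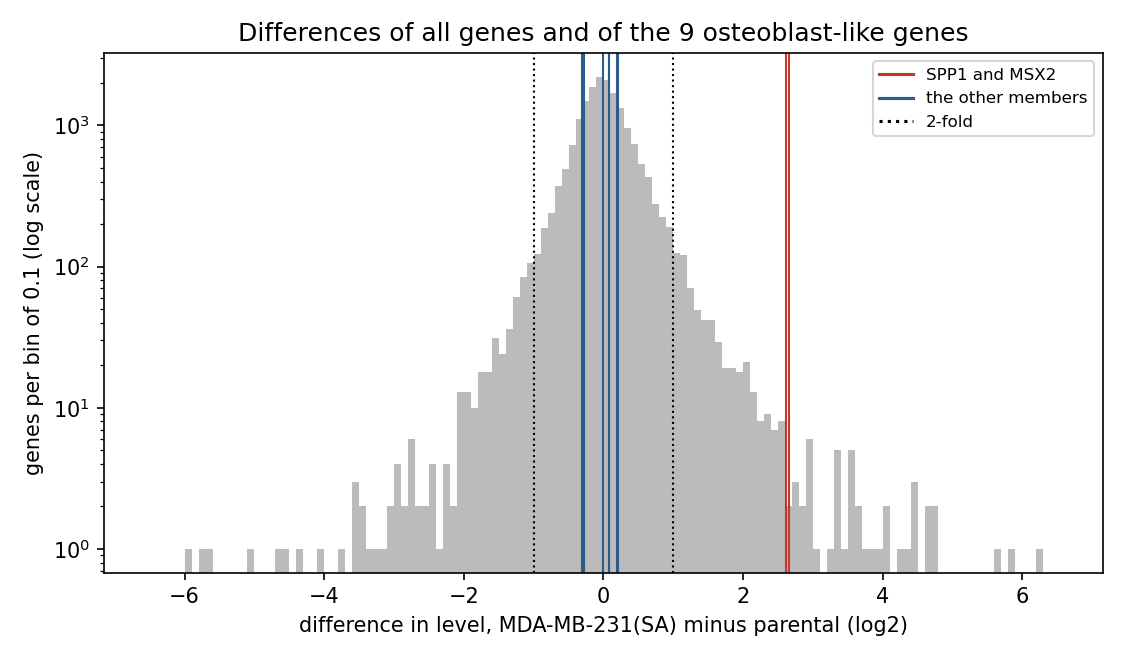
Number of genes (log scale) by difference in level, SA variant minus parental (log2 scale, bins of 0.1), over all 18394 genes, with vertical lines at the 9 genes. *SPP1* (2.62) and *MSX2* (2.66) stand in red in the upper tail, and the other 7 genes, in blue, lie between -0.31 and 0.20, inside the dotted 2-fold lines.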

How the data were processed

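Total RNA of 2 cultures was hybridised to 1 Affymetrix array each. The deposited table holds log2 levels made with RMA, per the submitters' processing notes. RMA corrects background, equalises the arrays' distributions and summarises probes, and it shrinks differences of dim genes towards 0. Its version, the array model and the log base were not given in the sources used here; base 2 was taken because RMA writes it and values ran from 2.50 to 14.5. Precision is limited by the number of arrays.

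Differences were taken as SA variant minus parental, and a fold is 2 to the power of a difference. The size rule was 2-fold and the floor was the median of all values. Members and lists were chosen with earlier results of these data known. All 9 members are named whatever their values, with symbols as given with the list. The gene table used here held 0 Ensembl IDs, so the longer lists of bone genes, family partners, osteopontin receptors and cell type markers were not analysed here. Promoter letters were searched on both strands. Alternatives were other floors and size rules, centring, a lowess trend (span 0.4) and quantile normalization. Python 3.11.15, numpy 2.4.6, pandas 2.3.3, statsmodels 0.14.6 and matplotlib 3.10.9 were used.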

Additional observations from a re-analysis of the deposited data

How the results depend on the processing

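No paired analysis was possible because each line had 1 array, and no array could be left out. Under centring, lowess trend subtraction and quantile normalization, *MSX2* stayed between 2.62 and 2.66 and *SPP1* between 2.57 and 2.65 on the log2 scale. No member moved by more than 0.049, and the sign changed for 1 of the 9, *ALPL*, which ranged from -0.051 to 0.030. The number of members both at or above the floor and past the size rule was 2, as was the number past the size rule with no floor. The first became 1 after quantile normalization, where *SPP1* lay just below the floor but still differed by 2.61. It was 0 when the floor was raised to the 75th percentile or required on both arrays, which leave only *CDH11* to compare. Of all compared genes, 9.92% passed 2-fold in either direction, against 6.00% with no floor, 27.6% at 1.5-fold and 3.12% at 3-fold; the size rules change this share by construction. The number of members at or above the floor, 3, became 6 with the floor at the 25th percentile. It was 2 after quantile normalization, and 1 at the 75th percentile or when the floor was required on both arrays. Dim signal limits the values of the 6 members below the median floor on both arrays and the folds of *SPP1* and *MSX2*.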
